A study of Ovis aries with 30 samples.

Results

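Perirenal brown adipose tissue (BAT) of 6 cold lambs was compared with that of 3 control lambs. These 9 libraries, of 30 in the whole series, were chosen by their treatment labels alone, and the comparison ran over the 14940 of 28524 genes that reached 10 reads in 10 or more of the 15 BAT libraries. All animals were newborn Romney lambs, each the heavier twin of a different dam, of both sexes and without genetic modification. The cold lambs spent 2 days indoors at 4 °C with dam and sibling, and suckled. The 3 controls were sampled at the start, about 24 h after lambing by the labels, so cold lambs had had 2 days more of life and milk as well as the cold, and these cannot be told apart in cold against control. A further 6 lambs held for the same 2 days at 20–22 °C (ambient temperature, AT) had the age of the cold lambs. They entered the same fit and are given beside the results. Nothing in the labels gives more than 1 library per lamb and tissue, so each library is 1 animal.

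BAT burns lipid for heat. Its defining protein, UCP1, lets protons back across the inner mitochondrial membrane without making ATP, and noradrenaline acting on β-adrenergic receptors switches this on in the cold. In sheep, the perirenal depot is brown at birth and takes on the character of white fat over the following weeks.

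Counts were divided by 1 size factor per library, estimated on the reference genes ACTB, RPL19 and HUWE1, and are called normalized counts. A log2FC is the fitted log2 difference between groups, cold minus control unless named otherwise, and is given with its SE. Genes were tested by edgeR's quasi-likelihood test (2-sided), all adjusted p-values are Benjamini-Hochberg values over the 14940 genes, and a gene was called upregulated or downregulated at |log2FC| ≥ 1 with an adjusted p under 0.05. The 9 libraries held 32324089 to 37025998 counts, but a pair of genes without a symbol took 49.8 to 75.5% of them, and 8749813 to 16220016 counts were left for all other genes. Neither the share of this pair (exact permutation test over 84 splits, 2-sided, p = 0.75) nor the size factor (p = 0.4643) differed between cold lambs and controls beyond their spread. In bulk tissue, fewer cells of a type and less RNA per cell cannot be told apart.

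One control stood apart from every other library. In Control 2, 502 genes were more than 2-fold above and 2631 more than 2-fold below all of the other 14 BAT libraries, against at most 90 and 85 genes in any other library. Its Spearman correlation with the others was 0.797 to 0.855, while the other 14 correlated with each other at 0.915 or more. The tissue label was checked against marker genes. The summed normalized count of 13 adipocyte markers was 406362 in Control 2, 117427 and 114920 in Controls 1 and 3 and 63687 to 118217 in the cold lambs. The median member did not stand apart in this way. On log2(normalized count + 1) minus the mean of Controls 1 and 3, it was 0.74 in Control 2. It was -0.63 to 0.77 in the cold lambs and -1.05 to 1.14 in the AT lambs. The summed normalized count of 14 endothelial markers was 20449 in Control 2 and 60515 to 98172 in the other 8 libraries. STAR, which carries cholesterol into steroid-making mitochondria and marks the neighbouring adrenal gland, stood at 2476 in Control 2 and at 18.1 to 180 in the other 8 libraries of this comparison, with up to 842 in the AT lambs. The 3 reference genes were also out of step there, RPL19 being high at 17648 against 7394 and 8910 in the other controls, and HUWE1 low at 1580 against 3043 in both. The size factor of Control 2 was 0.489 on these genes, 0.405 by TMM and 0.382 by the median of ratios. A larger factor lowers every normalized count of a library, so the numbers of genes above and below depend on the scaling. Whether these features of Control 2 account for any difference was not tested. The counts of each list are therefore given with and without this library. For many leading genes the adjusted p without it is also given, and for some the log2FC. The rest are given with all 3 controls only. Each of the 98 genes described below was called without Control 2.

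With all 3 controls, 728 genes were called (4.87% of those tested), 404 up (2.7%) and 324 down (2.17%). Median-of-ratios size factors turned this balance, with 522 up and 644 down. Without Control 2, 150 genes were called (1.0%), 90 up (0.602%) and 60 down (0.402%), and with TMM size factors in that set 232 up and 95 down. Leaving out Control 1 or Control 3 instead gave 897 and 999 genes. Of the 324 downregulated genes, Control 2 was the highest control in 293, and of the 404 upregulated genes it was the lowest in 289. These shares were not counted over all genes. Over all genes tested, the median of Control 2 minus the mean of Controls 1 and 3 was -0.38 on log2(normalized count + 1). That median was 1.42 over the downregulated and -0.82 over the upregulated genes. The libraries of the 2 groups did not overlap in 1916 of all genes tested (12.8%), and in 613 of the 728 called genes. The median log2FC over all genes tested was 0.07.

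**Figure D1:**
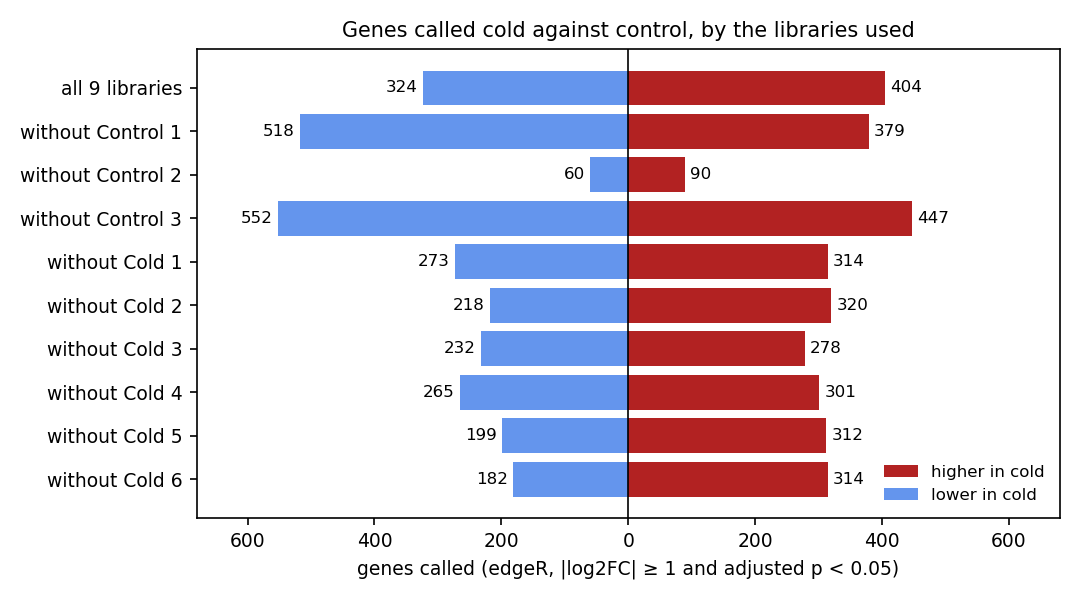
Number of genes called upregulated (to the right) and downregulated (to the left) in cold lambs against controls, by edgeR in all 9 libraries and with each control or cold lamb left out in turn. Leaving out Control 2 took the count from 728 to 150, and leaving out any cold lamb left between 496 and 587.

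A set of 98 genes (0.656%) was called in the same direction with all 3 controls and with each control left out, 68 up (0.455%) and 30 down (0.201%). Their calls rest on no single control, and the description turns on them. The sizes of their differences can still depend on Control 2. On log2(normalized count + 1), Control 2 minus the mean of Controls 1 and 3 had a median of 0.66 over the downregulated genes of this set. That median was -0.40 over its upregulated genes and -0.38 over all genes tested. A symbol was given for 51 of the upregulated and 28 of the downregulated genes. The other 17 upregulated (log2FC 1.25 to 6.21) and 2 downregulated genes (-1.27 and -3.97) are known by LOC numbers. The median log2FC was 2.39 among the upregulated (lowest 1.20) and -1.79 among the downregulated genes (nearest to zero -1.27). The choice of the 98 used the fits with each control left out, so agreement in these 3 is fixed by the choice. Over all 17 other settings of the fit, these 3 included, all 98 genes had the same sign, and 91 genes (64 of them up) were called under every one. The exceptions were CRACR2B, RAD54L, RUNDC3B, TIMM9, RSL1D1, HSPA5 and 1 LOC gene.

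**Figure D2:**
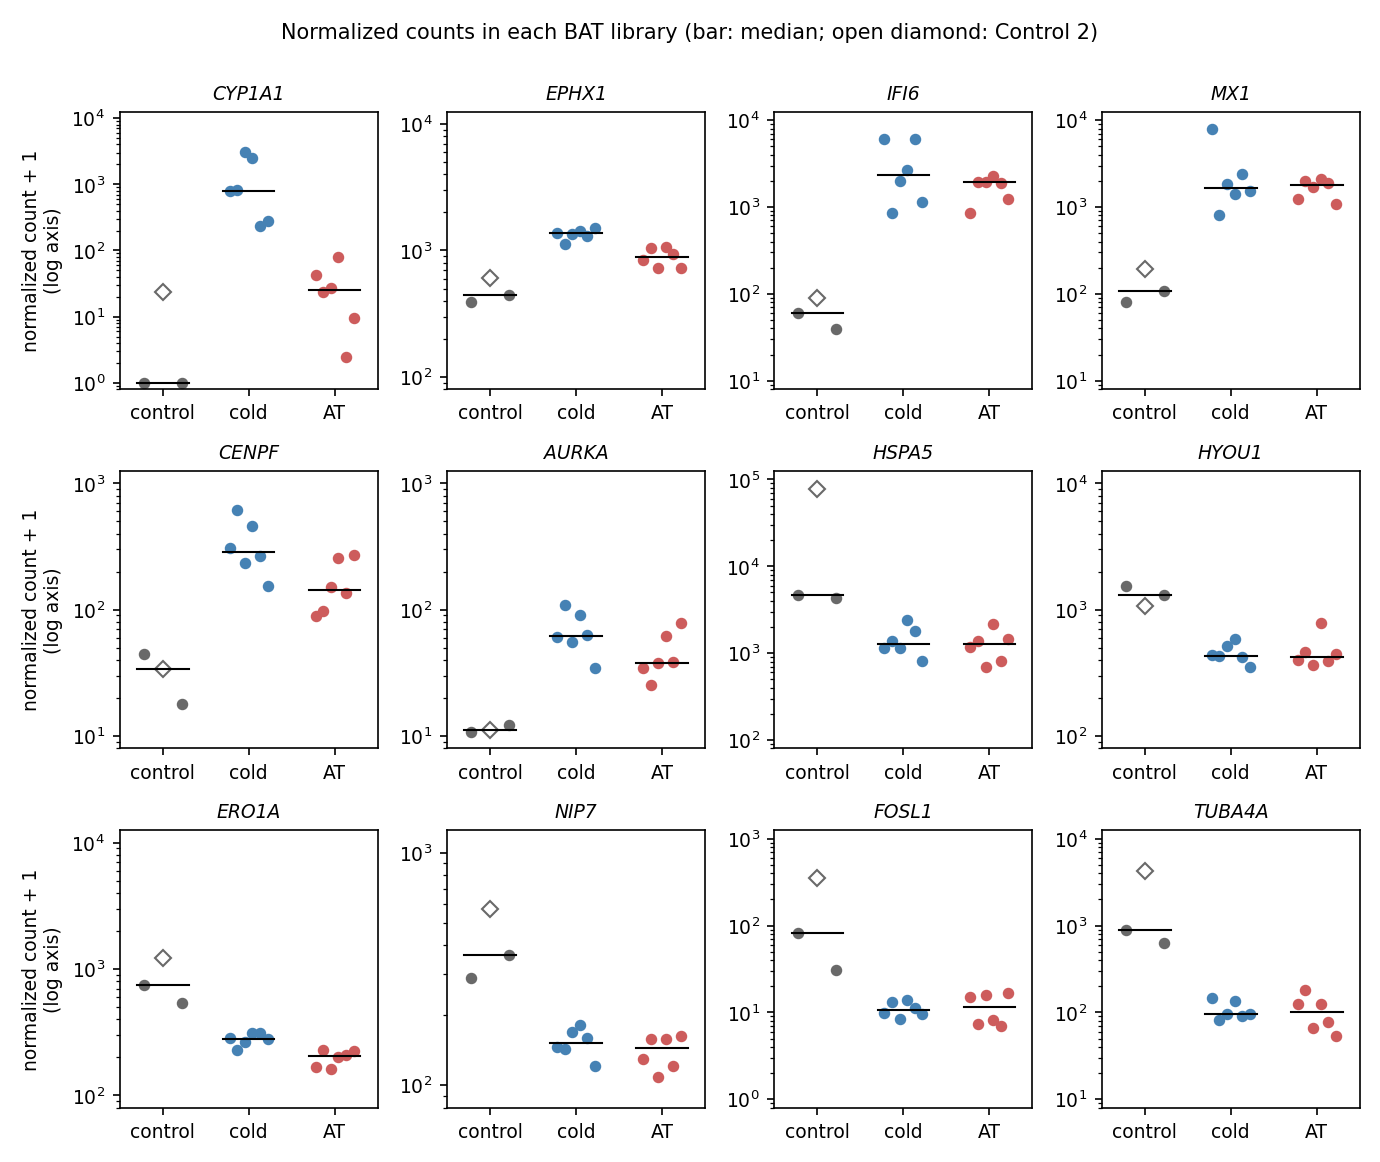
Normalized count plus 1 on a log axis of 12 of the 98 genes in each BAT library of the control, cold and AT groups, with a bar at each group's median and an open diamond for Control 2. The 6 cold lambs lay wholly above the 3 controls for the first 6 genes and wholly below them for the last 6. The rule for named genes required this for CYP1A1, IFI6, MX1, HSPA5, FOSL1 and TUBA4A. CYP1A1, EPHX1 and ERO1A are the genes where cold and AT lambs did not overlap either.

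The upregulated gene with the largest log2FC among the 98 was CYP1A1 (chromosome 18, 31804203 to 31810062, Oar_rambouillet_v1.0), a cytochrome P450 that oxidizes aromatic compounds and is switched on by the aryl hydrocarbon receptor. Its normalized count was 233 to 3108 in the cold lambs (median 804), 22.5 in Control 2 and 0 in Controls 1 and 3. Cold 3 and Cold 4 were the highest. The log2FC was 8.02 ± 1.48 (adjusted p = 0.00867), and without Control 2, where both controls were at 0, the mean of the cold lambs was at least 355-fold higher than a floor of 3 counts per library. AT lambs lay between 1.49 and 78, wholly below the cold lambs, with an adjusted p of 0.0672 for cold against AT. Another enzyme of the same kind of metabolism, the epoxide hydrolase EPHX1, which opens epoxides left by cytochromes, was tight within groups. It lay between 1122 and 1492 in the cold lambs (median 1361) and at 388, 601 and 443 in Controls 1, 2 and 3, with a log2FC of 1.49 ± 0.21 (adjusted p = 0.00242, and 0.00337 without Control 2). AT lambs, at 727 to 1069, lay between the groups and overlapped neither (log2FC of cold minus AT 0.59, adjusted p = 0.28). Of 6 tested targets of the aryl hydrocarbon receptor, CYP1A1 and GSTA1 were called up and TIPARP and SLC7A5 down. Without Control 2 only CYP1A1 and SLC7A5 were called, so the members did not move one way. Of all genes tested, 2.7% were called up and 2.17% down with all controls, and 0.602% and 0.402% without Control 2.

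Genes that interferon switches on were higher in cold lambs than in controls. Of all genes tested, 2.7% were called up with all controls and 0.602% without Control 2. Of the 45 interferon-stimulated genes tested, 30 were called up and 0 down, all 45 had a positive log2FC, and their median was 2.07 against 0.07 over all genes. Without Control 2, 7 were called up by edgeR and 30 by DESeq2's Wald test, with all 45 still positive and a median of 1.79. Those 7 were among the 98 genes, namely ISG15, IFI6, IFIT1, MX1, DHX58, XAF1 and CMPK2. IFI6 (chromosome 2, 255170913 to 255174624), a small mitochondrial and membrane protein, stood at 847 to 6071 in the cold lambs (median 2324) and at 59.4, 87.9 and 38.2 in the controls. Its log2FC was 5.68 ± 0.74 (adjusted p = 0.00187, and 0.00992 without Control 2). ISG15, a ubiquitin-like tag, stood at 196 to 2052 (median 463) against 12.1, 6.13 and 9.9 (log2FC 6.09 ± 0.82, adjusted p = 0.00228, and 0.0184 without Control 2). The antiviral GTPase MX1 stood at 801 to 8005 (median 1672) against 78.8, 190 and 107 (log2FC 4.42 ± 0.70, adjusted p = 0.00429, and 0.019 without Control 2). In each of these the lowest cold lamb was above the highest control by several fold. The rule for named genes required the lack of overlap, though not its size.

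The other interferon-stimulated genes among the 98 were IFIT1, XAF1, DHX58 and CMPK2. IFIT1, which binds RNA lacking a host cap, had a log2FC of 4.64 (adjusted p = 0.00242), XAF1 one of 3.60 (0.00385), the RNA sensor DHX58 one of 2.87 (0.0109), and the nucleotide kinase CMPK2 one of 1.89 (0.00782). One animal stood above the rest, since Cold 1 had the highest value of the cold lambs in 44 of the 45 members. With Cold 1 left out, 24 members were called and the median was 1.73. The AT lambs shared these levels (IFI6 848 to 2269, MX1 1069 to 2112), and none of the 45 was called between cold and AT lambs, although 42 had a higher fitted mean in cold and 9 an unadjusted p under 0.05. EPSTI1, which the list of thermogenic genes also holds, belongs to this group by its biology and was that list's only called member. T and NK cell, B cell and macrophage markers had 0 called members. The macrophage markers had a median log2FC of 1.03 (1.19 without Control 2), and their summed level was 11261 in Cold 4, against 1439 to 4899 in the other cold lambs and 1678 to 2876 in the controls. Their part in the interferon genes was not tested.

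The mitosis genes were the list with the most upregulated members. Of all genes tested, 2.7% were called up with all controls and 0.602% without Control 2. Lack of overlap was common among called genes, in 613 of the 728. Of the 62 mitosis genes tested, 44 were called up and 0 down with all 3 controls, all of them without overlap between the groups, and the median log2FC was 2.50. Without Control 2, 8 were called by edgeR, 13 with TMM size factors and 46 by DESeq2's Wald test, and 61 of the 62 stayed positive with a median of 2.18. The 7 among the 98 genes were CENPW, CENPE, CENPF, TTK, AURKA, SKA3 and SMC2. All of these act on chromosomes at division. CENPE and CENPF are motors and scaffolds of the kinetochore, the chromosome's attachment to the spindle, SKA3 and CENPW are further parts of it, TTK is the kinase of the spindle checkpoint, AURKA builds the spindle poles and SMC2 condenses the chromosomes.

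CENPF (chromosome 12, 74119867 to 74183211) stood at 152 to 619 in the cold lambs (median 285) and at 43.6, 32.7 and 17 in Controls 1, 2 and 3 (log2FC 3.48 ± 0.54, adjusted p = 0.00429, and 0.021 without Control 2). AURKA stood at 33.8 to 107 (median 61.1) against 9.7, 10.2 and 11.3 (log2FC 2.69 ± 0.47, adjusted p = 0.00782, and 0.0311 without Control 2). Both groups of libraries stayed apart in each, and Control 2 was not the lowest control in either. SMC2 had a log2FC of 1.68 and TTK one of 3.62 (adjusted p = 0.00824 and 0.0102). CENPW had only 1 to 3 counts in each control, 7 in all against 242 in the cold lambs, and the ratio of normalized counts was 13.9 (95% counting interval 6.62 to 34.8). The proliferation markers MKI67 and TOP2A, both with a log2FC of 2.92, were called with all 3 controls (adjusted p = 0.0196 and 0.00867) and not without Control 2 (0.0894 and 0.0543). Cold 2 had the highest value of the cold lambs in 53 of the 62 genes, and without it 31 were called.

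Genes that copy DNA differed by less than those that divide it. Of 45 tested, 2 were called up, PCLAF and CLSPN, and 0 without Control 2, although 43 had a positive log2FC (44 without Control 2). Over all genes 2.7% and 0.602% were called up in the same sets, so the 2 calls are no result about this list, and DESeq2's Wald test called 6 and 3. The median was 0.64 (0.38 without Control 2), against 2.50 for mitosis. RAD54L, a motor of recombination repair, is outside this list and was among the 98 genes (90.3 to 218 in cold lambs, 47.3, 2.04 and 38.2 in controls, log2FC 2.23). The checkpoint protein KNTC1, which no list held, was also among the 98 (log2FC 2.21) and was named after its values were seen. In AT lambs the mitosis list stood at a median of 1.81 over the shared controls with 25 of 62 called up, and 59 of the 62 had a higher fitted mean in cold than in AT lambs, 13 with an unadjusted p under 0.05 and 0 called.

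**Figure D3:**
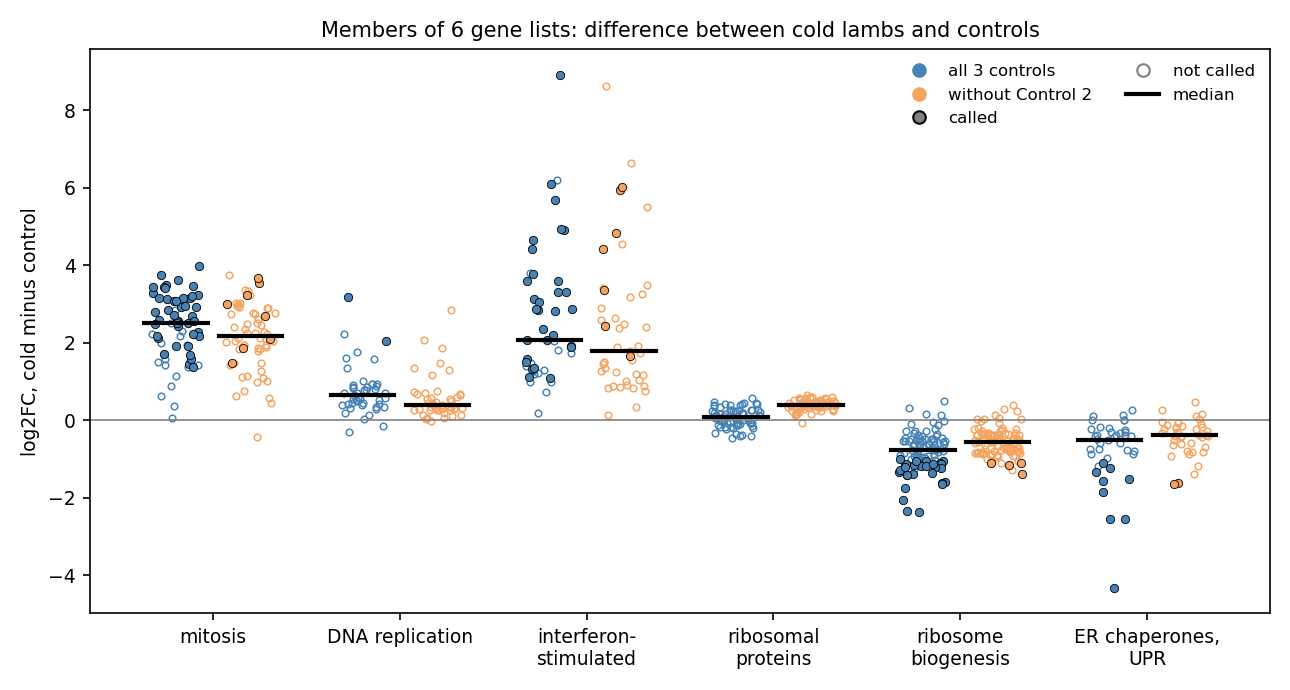
Log2FC of cold minus control for each tested member of 6 gene lists, with all 3 controls (left of each pair) and without Control 2 (right). Filled points were called, open points were not, and bars are medians. Mitosis and interferon-stimulated genes lay above zero in both sets, with medians of 2.50 and 2.07 falling to 2.18 and 1.79, while far fewer of their members were called without Control 2.

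Among the upregulated genes outside these groups, GHSR, the receptor of the hunger hormone ghrelin, stood at 372 to 1469 in the cold lambs (median 958) and at 99.4, 0 and 120 in the controls (log2FC 3.65 ± 0.76, adjusted p = 0.0132, and 0.0208 without Control 2). GHSR was also high in AT lambs, at 326 to 1320. SEMA3G, a secreted guidance protein of vessels and one of the most abundant of the 98, stood at 1992 to 4606 (median 3352) against 862, 546 and 1498 (log2FC 1.81 ± 0.35, adjusted p = 0.0102, and 0.0463 without Control 2). The calcium-channel regulator CRACR2B stood at 834 to 2100 against 541, 83.8 and 393 (log2FC 2.08, adjusted p = 0.0182, and 0.0454 without Control 2). All of these were above every control in every cold lamb, with Control 2 the lowest. For SEMA3G and CRACR2B the rule for named genes required this lack of overlap.

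Smaller levels were seen for the other genes of the 10 largest positive differences. GAS2L2, a linker of actin and microtubules, stood at 46.9 to 179 in the cold lambs against 3.64, 10.2 and 2.12 (log2FC 4.37, adjusted p = 0.00385). LRRC31 stood at 10.3 to 159 against 3.64, 2.04 and 4.95 (log2FC 4.15, adjusted p = 0.00867). The dipeptidase DPEP3 stood at 42.9 to 107 against 3.64, 10.2 and 0.707 (log2FC 3.95, adjusted p = 0.00973). All 3 were low in every control. The signalling ligand WNT6 had 3 counts in all controls together and 121 in the cold lambs, a ratio of normalized counts of 16.2 (95% counting interval 5.40 to 79.5).

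Matrix genes did not move as one. Of 48 tested collagens and fibril proteins, 4 were called up (COL4A6, COL18A1, FMOD and FN1) and 1 down (THBS1), with a median log2FC of 0.20, and without Control 2 COL4A6 was the only one called (median 0.49). Of all genes tested, 2.7% were called up and 2.17% down with all controls, and 0.602% up without Control 2. Single calls are no result about this list. COL4A6, a chain of basement membrane collagen, was 102 to 238 in the cold lambs and 14.5, 18.4 and 41.7 in the controls (log2FC 2.54 ± 0.47, adjusted p = 0.00867). THBS1 was at 15377 in Control 2 and at 1115 and 1417 in the other controls, within reach of the cold lambs at 622 to 2071.

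The largest downregulated gene by log2FC was HSPA5 (chromosome 3, 11048185 to 11052510), the main chaperone of the endoplasmic reticulum (ER). It stood at 821 to 2379 in the cold lambs (median 1270) and at 4612, 78115 and 4322 in Controls 1, 2 and 3. The cold lambs were below all controls, as the rule for named genes required. Control 2 was far above the other controls, so the log2FC of -4.32 ± 0.69 (adjusted p = 0.00429) became -1.62 without it (adjusted p = 0.0454). HYOU1, the exchange factor that works with HSPA5, had no such outlying control. It stood at 354 to 582 in the cold lambs (median 433) against 1548, 1063 and 1299 (log2FC -1.52 ± 0.23, adjusted p = 0.00385, and 0.00877 without Control 2).

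ERO1A, the oxidase that drives disulphide bonds in the ER, stood at 229 to 310 in the cold lambs against 749, 1229 and 538 (log2FC -1.58 ± 0.21, adjusted p = 0.00228, and 0.00955 without Control 2). AT lambs were lower still, with 229 at most and a median of 203, and lay just below the cold lambs (log2FC of cold minus AT 0.50, adjusted p = 0.525). P4HA1, which hydroxylates proline in collagen, stood at 269 to 684 against 1244, 1648 and 1436 (log2FC -1.66, adjusted p = 0.00385, and 0.0181 without Control 2). Of 40 tested ER chaperones and unfolded protein response genes, 9 were called down and 0 up (median -0.51), and without Control 2 HSPA5 and HYOU1 alone were called (median -0.39). Of 48 cytosolic and mitochondrial chaperones, 6 were called down, among them HSPB1 and CRYAB, and 0 without Control 2. Hypoxia-induced genes had 4 of 25 called down with all controls (P4HA1, SLC2A1, APLN and PLOD2) and 3 without Control 2 (P4HA1, VEGFA and APLN). Of all genes tested, 2.17% were called down with all controls and 0.402% without Control 2. Of the angiogenic list, VEGFA, APLN and NOS3 were called down without Control 2, and Control 2, where endothelial markers were also low, was the lowest control for all 3. VEGFA stood at 1210 to 2399 in the cold lambs and at 8535, 1349 and 2593 in the controls (log2FC -1.29, adjusted p = 0.0831, and -1.71 and 0.0434 without Control 2).

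Ribosome biogenesis genes, which make and process ribosomal RNA and assemble the subunits, were the list with the most downregulated members. Of all genes tested, 2.17% were called down with all controls and 0.402% without Control 2. Of the 98 ribosome biogenesis genes tested, 30 were called down and 0 up with all 3 controls, 94 had a negative log2FC and the median was -0.77. Without Control 2, 4 were called down (NOP14, RRP12, PNO1 and NIP7), 90 stayed negative and the median was -0.56. PNO1 and NIP7, assembly factors of the small and the large subunit, were the only members among the 98 genes. NIP7 stood at 120 to 180 in the cold lambs (median 152) against 289, 574 and 363 (log2FC -1.42 ± 0.22, adjusted p = 0.00385, and 0.0202 without Control 2). PNO1 stood at 137 to 184 (median 162) against 285, 472 and 402 (log2FC -1.28 ± 0.21, adjusted p = 0.00459, and 0.0228 without Control 2). RSL1D1, RPF2 and CCDC86, nucleolar proteins that no list held, were also among the 98, with log2FC of -1.71, -1.65 and -1.45. The proteins of the ribosome itself, RPL19 of the size factors among them, had no called member. Of 67 tested, 0 were called in either direction, the median was 0.08, and without Control 2 it was 0.39 with 66 of 67 positive. The median of ribosomal proteins was -0.04 with TMM size factors and all 3 controls, so their sign with all controls depends on the scaling.

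Amino acid transporters of the SLC7 family appeared on both sides. SLC7A5, the carrier of large neutral amino acids, stood at 39.5 to 106 in the cold lambs against 240, 237 and 238 in Controls 1, 2 and 3 (log2FC -1.71 ± 0.27, adjusted p = 0.00429, and 0.0179 without Control 2), with the controls almost equal. SLC7A6 stood at 4.94 to 16.1 against 66.7, 251 and 53 (log2FC -3.33, adjusted p = 0.0026, and 0.0162 without Control 2). SLC7A7 rose instead, from 239, 217 and 236 to between 494 and 843 (log2FC 1.36 ± 0.23, adjusted p = 0.00537, and 0.0228 without Control 2). Of 25 amino acid response genes (ATF4 targets), SLC7A5, SLC3A2, SLC7A1 and SLC1A5 were called down with all controls, all of them transport proteins, and SLC7A5 alone without Control 2. Of all genes tested, 2.17% were called down with all controls and 0.402% without Control 2. SESN3, which reports low amino acids or stress to the growth kinase mTORC1, rose, from 147, 162 and 222 to between 311 and 556 (log2FC 1.32, adjusted p = 0.00971).

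FOSL1, ZFP36 and IL1RN, of cell activation and inflammation, fell. The AP-1 subunit FOSL1 stood at 7.41 to 13.1 in the cold lambs (median 9.60) against 81.2, 348 and 29.7 (log2FC -3.88 ± 0.56, adjusted p = 0.0026, and 0.0179 without Control 2). ZFP36, which destroys cytokine messages, stood at 244 to 578 against 2124, 1684 and 1147 (log2FC -1.88, adjusted p = 0.00607, and 0.0205 without Control 2). IL1RN, the natural blocker of interleukin 1, stood at 18.3 to 81.2 against 301, 707 and 238 (log2FC -3.18, adjusted p = 0.00751, and 0.0412 without Control 2). All cold lambs were below all controls in these 3, as the rule for named genes required. Of 33 immediate early genes, FOSL1, ZFP36, MYC and MAFF were called down, and FOSL1 and ZFP36 without Control 2. The other 29 were not called, and the median was -0.20. Of all genes tested, 2.17% were called down with all controls and 0.402% without Control 2.

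The remaining genes of the 10 largest negative differences came from several kinds of function. TUBA4A, an α-tubulin, had the lowest adjusted p of those named (81.7 to 147 in the cold lambs, 878, 4223 and 631 in the controls, log2FC -4.16 ± 0.49, adjusted p = 0.00133, and -2.83 and 0.00225 without Control 2). Tubulin genes are near copies of each other, and reads shared between them were counted at each. CNTNAP5, a neuronal adhesion protein, stood at 2.07 to 18.5 against 148, 217 and 118 (log2FC -4.09, adjusted p = 0.0026, and 0.0106 without Control 2). ACOX2, a peroxisomal oxidase of branched and bile acid chains, stood at 51.9 to 239 against 647, 2723 and 556 (log2FC -3.47, adjusted p = 0.00187, and 0.00803 without Control 2). The groups did not overlap in these 3, which the rule for named genes required.

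Of the other large decreases, MASP1, a protease of the lectin pathway of complement, stood at 152 to 350 against 1600, 1597 and 466 (log2FC -2.51, adjusted p = 0.00228). SMPD3, a neutral sphingomyelinase, stood at 198 to 619 against 1777, 2760 and 712 (log2FC -2.29, adjusted p = 0.00429). UPP1, which splits uridine, stood at 33.8 to 113 against 543, 196 and 259 (log2FC -2.27, adjusted p = 0.00971). Here Control 3 was the nearest to the cold lambs for MASP1 and SMPD3 and Control 2 for UPP1. The scaffold of protein kinase A, AKAP12, which was among the most abundant downregulated genes, stood at 587 to 1342 against 4298, 2672 and 1758 (log2FC -1.57 ± 0.32, adjusted p = 0.0128). PHOSPHO1, a phosphatase of choline and ethanolamine phosphate, stood at 148 to 352 against 1552, 554 and 1062 (log2FC -2.24 ± 0.35, adjusted p = 0.00429, and 0.00507 without Control 2). PHOSPHO1 was named after its values were seen.

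Of the 19 tested thermogenic genes, edgeR called EPSTI1 alone in the fit of all 15 libraries, and UCP1 was not called. With 2.7% of all genes called up, this single call is no result about the list. UCP1 (chromosome 17, 18691987 to 18698653) stood at 2813 to 11790 in the cold lambs (median 8284) and at 20367, 82999 and 18667 in Controls 1, 2 and 3. The cold lambs were below all 3 controls without overlap, yet the log2FC of -2.39 ± 0.81 had an adjusted p of 0.085, and -1.33 with 0.493 without Control 2. Fitted on the 9 libraries of both groups alone, UCP1 was called down (adjusted p = 0.0404). In AT lambs UCP1 ranged from 192 to 12308. PRDM16, the regulator of brown fat identity, was 102 to 322 in the cold lambs against 86.1, 69.5 and 119 (log2FC 1.22, adjusted p = 0.0608, and 0.21 without Control 2). CIDEA, a lipid droplet protein of brown fat, overlapped between the groups (log2FC 0.23, adjusted p = 0.857). The coactivator PPARGC1A (-0.96, adjusted p = 0.237), the deiodinase DIO2 that makes active thyroid hormone (-1.19, 0.438) and the β3-adrenergic receptor ADRB3 (-1.30, 0.122) had negative log2FC and overlapping groups. DESeq2's Wald test called 4 of the 19 up (EPSTI1, PRDM16, FNDC5 and TBX1) and 0 down. The median log2FC of the 19 was -0.08, and -0.39 without Control 2.

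**Figure D4:**
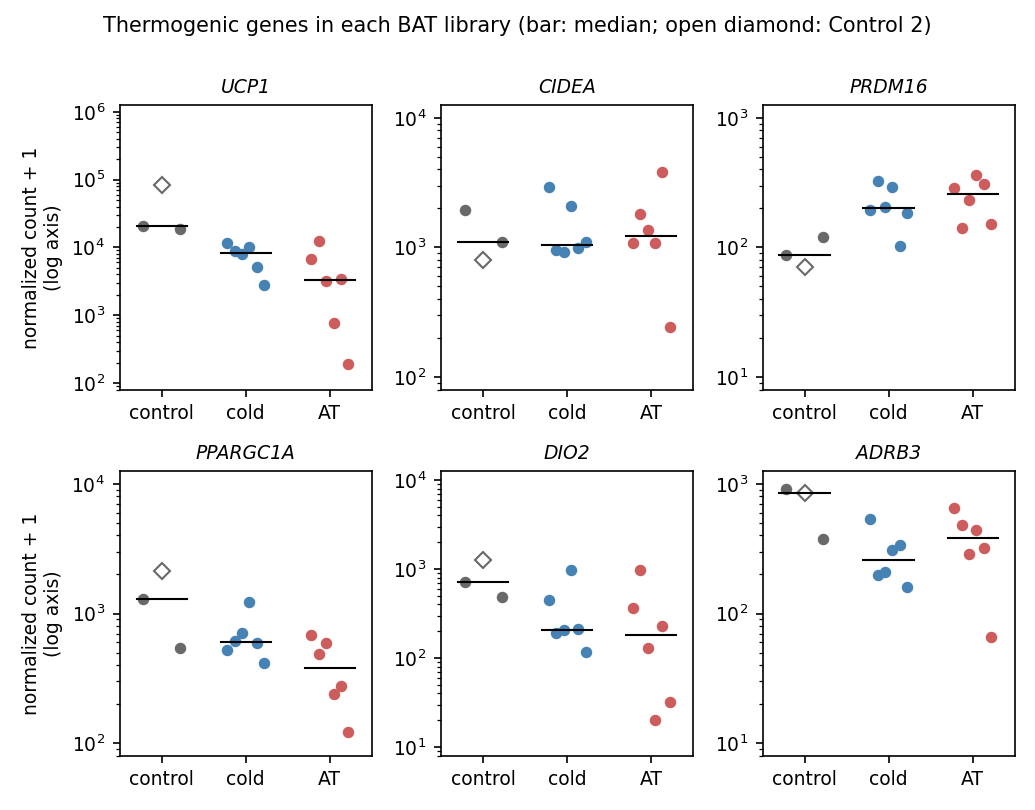
Normalized count plus 1 on a log axis of 6 thermogenic genes in each BAT library, with bars at group medians and an open diamond for Control 2. UCP1 is the only one of the 6 in which all cold lambs (2813 to 11790) lay below all controls (18667 or more), and AT lambs spanned 192 to 12308.

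In the pathways that feed heat production, edgeR called genes with Control 2 and none without it. Citric acid cycle genes had 4 of 22 called down, CS and IDH2 among them, and a median of -0.75 with all controls, and 0 called and -0.19 without Control 2. CS, citrate synthase, stood at 1311 to 1696 in the cold lambs, at 3516 and 3432 in Controls 1 and 3 and at 13864 in Control 2. Its log2FC of -2.16 (adjusted p = 0.00782) became -1.16 without Control 2 (0.0544). Glycolysis went from 6 of 23 called down and a median of -0.98 to 0 and -0.48, oxidative phosphorylation from 3 of 57 and -0.54 to 0 and -0.13, and fatty acid oxidation from 2 of 27 and -0.61 to 0 and -0.07. Over all genes 2.17% were called down with all controls and 0.402% without Control 2, against which counts of 2 or 3 members are no result about a list. Without Control 2, TMM size factors with edgeR and DESeq2's Wald test each called 2 glycolysis genes, 1 of the citric acid cycle and 1 of oxidative phosphorylation down, and fatty acid oxidation had 0 and 1. Each of these medians lay nearer to zero without Control 2, glycolysis being the furthest from it. In that set, 19 of 22 citric acid cycle and 46 of 57 oxidative phosphorylation genes still had a negative log2FC. So did 16 of 23 glycolysis and 16 of 27 fatty acid oxidation genes, while 48.9% of all genes had a positive one. The summed adipocyte markers were high in Control 2, but their median member was not above every other library, as given above. Their part in these lists was not tested.

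Fat-handling lists had few calls in either set by edgeR with size factors from the reference genes. Lipolysis and lipid droplet genes (19 tested) and cholesterol synthesis genes (21 tested) had 0 called with all 3 controls and 0 without Control 2. Of 24 lipogenic genes, ACLY, which makes acetyl-CoA for fat synthesis, was called down with all controls, and its control values of 1686, 4119 and 832 spread widely. THRSP, a lipogenic switch that answers thyroid hormone, was called up without Control 2. It stood at 309 to 781 in the cold lambs and at 44.9, 247 and 36.8 in Controls 1, 2 and 3 (log2FC 2.48, adjusted p = 0.0509, and 3.85 with 0.035 without Control 2). Of 23 white adipocyte genes, TCF21 was called down with all controls, and without Control 2 THRSP, which this list also holds, was called up, with 15 of 23 higher in cold lambs and a median of 0.12. Over all genes 2.17% were called down with all controls and 0.602% up without Control 2, so single calls are no result about these lists. With all controls, TMM size factors called 5 lipogenic and 4 white adipocyte genes down and 0 up. DESeq2's Wald test called 5 lipogenic genes down and 2 up, and 3 white adipocyte genes down and 3 up. Without Control 2, both alternatives called 0 down in either list.

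**Figure D5:**
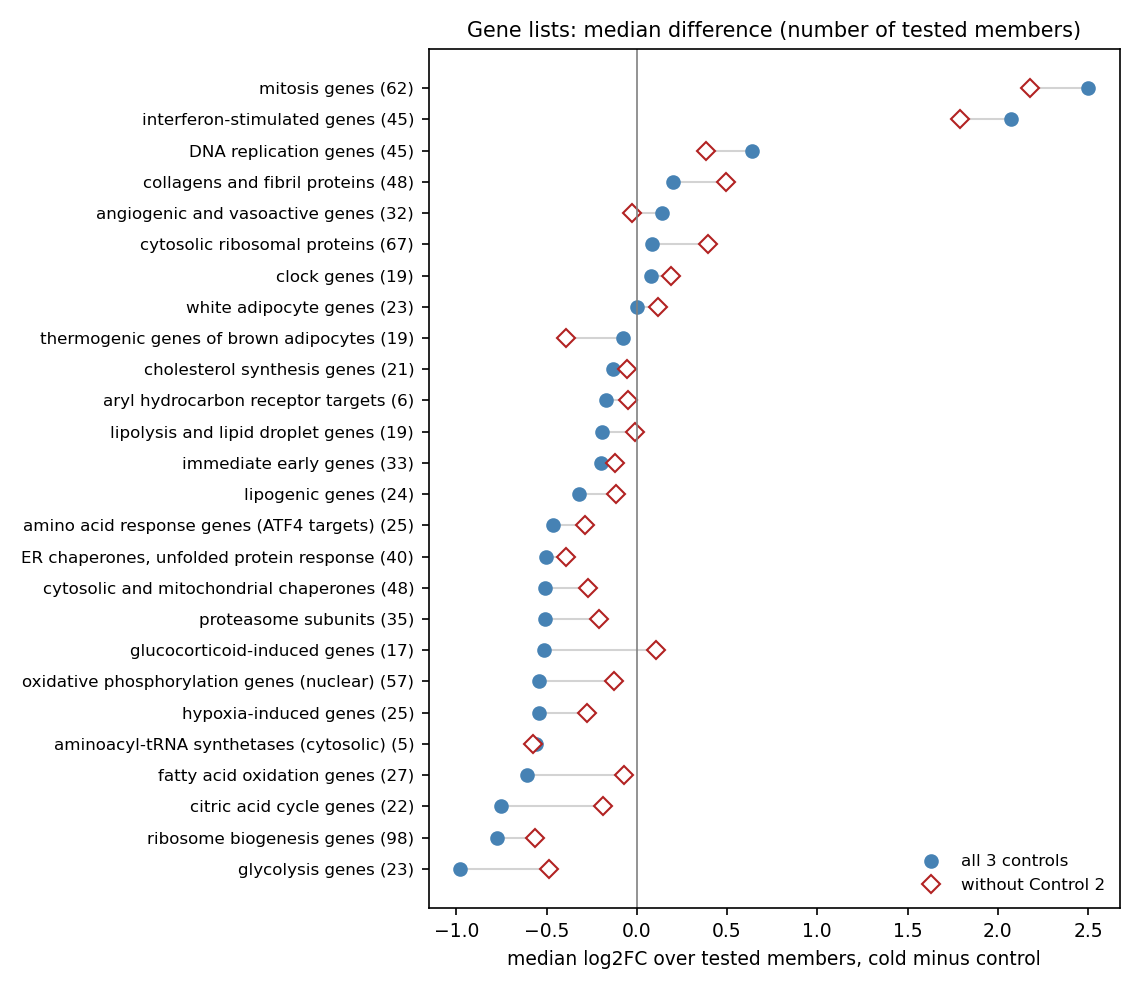
Median log2FC of cold minus control over the tested members of 26 gene lists, with all 3 controls (filled) and without Control 2 (open), sorted by the first. Mitosis and interferon-stimulated genes stood at 2.50 and 2.07, ribosome biogenesis and glycolysis genes at -0.77 and -0.98, and the energy pathways moved towards zero without Control 2.

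Among the remaining lists, 19 clock genes had DBP called up and CIART down with all controls and TEF up without Control 2. Proteasome subunits had 1 of 35 called down (PSME3, median -0.51) and glucocorticoid-induced genes 1 of 17 down (SLC19A2). The list of cytosolic aminoacyl-tRNA synthetases held 23 symbols, of which only 5 were among the deposited genes, and all 5 were tested. Of these 5 list members, FARSB and EEF1E1 were called down. Without Control 2, 0 were called in these 3 lists. Over all genes 2.7% were called up and 2.17% down with all controls, and 0.602% up without Control 2. Single calls in the clock, proteasome or glucocorticoid-induced genes are therefore no result about these lists. EDN1, the vessel-constricting peptide endothelin 1, was called up with all controls (436 to 948 against 186, 256 and 374, log2FC 1.32, adjusted p = 0.0221, and 0.0888 without Control 2). Of the 14 marker lists, DLK1 of preadipocytes, S100A9 of neutrophils and STAR of the adrenal were called down with all controls, each with Control 2 as the highest control, and 0 marker genes were called without it. Each was the only call of its list, which is no result about that list.

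Cold and AT lambs were set against the same 3 controls, so the comparisons are not independent and are given side by side. In AT lambs against controls, 1304 genes were called (8.73%), 859 up and 445 down (869 and 773 with TMM size factors). Of the 98 genes, 94 were also called there in the same direction, 65 up and 29 down. CYP1A1, EPHX1, RUNDC3B and SPRED3 were not. For RUNDC3B, the log2FC was 1.93 in cold and 0.91 in AT lambs over the controls. Tested directly at one age, cold against AT gave 0 called genes of 14940 (0.0%) by edgeR, with 1184 at an unadjusted p under 0.05, and 96 called genes by DESeq2's Wald test. Of the 98 genes, 24 had an unadjusted p under 0.05 in cold against AT. Among them were 20 upregulated genes, of which 12 were higher and 8 lower in cold than in AT lambs. RHBDL1, a membrane protease, was one of the genes with larger values in AT lambs (459 to 2351) than in cold lambs (233 to 649, controls 42.4, 16.4 and 33.2), with a log2FC of cold minus AT of -1.58 (adjusted p = 0.231).

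Of the upregulated genes not yet given, VDR, the vitamin D receptor, stood at 175 to 245 in the cold lambs against 82.4, 108 and 100 in Controls 1, 2 and 3 (log2FC 1.21 ± 0.22, adjusted p = 0.00782, and 0.0205 without Control 2). LGALS3BP, a secreted glycoprotein that binds galectins, stood at 952 to 1975 against 348, 538 and 435 (log2FC 1.65 ± 0.29, adjusted p = 0.00782). MGMT, which strips alkyl groups from damaged guanine, stood at 77.7 to 151 against 34, 38.8 and 37.5 (log2FC 1.46 ± 0.29, adjusted p = 0.0108). Control values lay close together in all 3, and their log2FC without Control 2 were 1.29, 1.82 and 1.49. MLLT3, a reader of acetylated histones (log2FC 1.48), PLA2G7, which hydrolyses platelet-activating factor (1.60), PIK3IP1, an inhibitor of phosphoinositide 3-kinase (1.80), the peptidase XPNPEP2 (2.56), the metalloprotease ADAMTS6 (2.21) and the dipeptidase DPEP2 (3.21) were also among the 68. The remainder with symbols were ARHGEF39, ARL14EPL, ASB9, RASL10B, SUSD2, CYB561, GASK1A, CERCAM, ANO3, SLC2A4RG and SLC46A3, with log2FC from 1.20 (SLC46A3) to 2.41 (ARHGEF39).

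Of the downregulated genes not yet given, GOT1, the cytosolic aspartate aminotransferase of the malate shuttle, stood at 188 to 341 in the cold lambs against 624, 1607 and 598 (log2FC -1.87 ± 0.31, adjusted p = 0.00578, and -1.25 and 0.0381 without Control 2). CNKSR3, a scaffold of sodium channel control, stood at 203 to 456 against 868, 513 and 1027 (log2FC -1.31 ± 0.27, adjusted p = 0.013, and 0.0172 without Control 2), and here Control 2 was the nearest to the cold lambs. WDR77, a subunit of an arginine methyltransferase complex (-1.68), SPRED3, an inhibitor of Ras signalling (-1.50), TIMM9, a chaperone of mitochondrial import (-1.27), and C14H19orf48 (-1.86) made up the rest. The genes of this and the preceding paragraph, and others of the 98 outside the rule for named genes, were named after their values were seen.

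The limit of 10 reads in 10 libraries also set which genes could be described. At its edge, 237 genes reached it in exactly 10 libraries (median of their mean normalized counts 14.4), and 220 fell short by 1 library (12.8). Among genes not tested, 57 had at least 10 reads in all 3 controls, and 6 of these had under 10 in all 6 cold lambs. In the other direction, 39 tested genes had at least 10 reads in all 12 kept lambs and under 10 in every control.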

How the data were processed

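The authors extracted RNA with TRIzol, captured mRNA with oligo(dT), sequenced 150-base read pairs (BGISEQ-500), trimmed with Trimmomatic 0.39, aligned with STAR 2.7.7a to Oar_rambouillet_v1.0 and counted with featureCounts (Subread 2.0.0), counting reads that map to several places at each. They deposited whole-number counts per gene without normalization. Whether counting used the strand is not given in the sources used here, which leaves overlapping and antisense genes uncertain. The pair with most counts, LOC114112617 and LOC114115287, stayed in the tables.

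All 15 BAT libraries were fitted together by edgeR 4.0.16 (R 4.3.3, robust quasi-likelihood), with offsets from DESeq2 1.42.0 size factors on ACTB, RPL19 and HUWE1. SE is |log2FC| divided by the square root of F. The study removed 1 control in each tissue because its counts were outlying overall. Here all 3 entered, with each left out in turn on the same genes and size factors. Medians use all tested members. No pair of libraries within a group was as alike as counting noise allows (chi-square over its degrees of freedom 57.7 or more). Samples were numbered in accession order. The p-values measure the spread between lambs. Counting intervals and floors (3 counts) cover counting error only.

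The members and the 26 function and 14 marker lists were chosen with earlier results of these data known. Named were genes with a symbol, no overlap and calls in all 4 sets of controls: the 10 largest log2FC and the 4 highest means per direction, up to 4 called members of each list (otherwise 2), 6 thermogenic genes and the reference genes. Other genes given with values were chosen after their values were seen. The fit was tested on simulated counts with the same dispersion for every gene and no control set apart. That test does not cover a control such as Control 2. Chromosome numbers were assigned through symbols shared with RefSeq's later assembly, and positions come from the deposited table. Promoter motifs were not analysed here. Some genes are not reported here. Alternatives were DESeq2's Wald test, size factors by TMM or by the median of ratios, 2 other filters, the 2 groups alone, each lamb left out and the adjusted p alone. Those that combine leaving out Control 2 with TMM or DESeq2 were added after the data were seen.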

Additional observations from a re-analysis of the deposited data

Results flagged for a closer look

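Among the 119 named genes, 4 had a cold lamb far from the other 5 by Dixon's ratio on log2(normalized count + 1), which chance gives in about 1 of 20 groups. These 4 of 119 are no more than that rate would give. IDH2, of the citric acid cycle, stood at 711 in Cold 5 and at 989 to 1117 in the others. DES, the muscle filament protein desmin, stood at 1162 in Cold 2 and at 256 to 447 in the others. CD8A, a T cell marker, stood at 81.2 in Cold 4, which also had the highest summed macrophage level, and at 8.04 to 15.9 in the others. SNAP25, a synaptic protein, stood at 17.3 in Cold 3 and at 42.9 to 56.6 in the others. Of these 4 genes, IDH2 was called down with all controls and not without Control 2. No cause was tested.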

How the results depend on the processing

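For cold against control (728 genes), counts moved by over 1.5 times to 1097 with TMM and 1166 with median-of-ratios size factors, 1243 by DESeq2's Wald test and 416 with the 2 groups alone, and, by alternatives added after the data were seen, to 327 without Control 2 under TMM. Without Control 2 the Wald test gave 628. Leaving out 1 lamb gave 150 (without Control 2) to 999 (without Control 3). The adjusted p alone gave 918, 1 or more reads in any library 697 and filterByExpr 769. For cold against AT (0 genes), TMM gave 14, median-of-ratios 16, the Wald test 96, the 2 groups alone 31, and the added settings 57 (TMM) and 152 (Wald). Leaving out 1 lamb gave 0 to 44, the highest without Control 2, and 13 without AT 2. For AT against control (1304 genes), the 2 groups alone gave 447, and leaving out 1 lamb 852 (without Control 2) to 1513. Of 83 called named genes, 47 lost the call without Control 2, and of 40 list medians 14 moved by more than the spread between cold lambs. The cause was not tested. No paired analysis was possible because the labels give no replicate numbers shared between groups. With 3 controls, and 1 of them apart, the spread among controls is poorly known, and 8749813 counts outside the leading pair set the depth of Control 2.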
